A study of Mus musculus with 9 samples.

Results

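The genes described here are 10 transcripts known to be induced by low oxygen that lie outside glycolysis, oxygen sensing and mitophagy: P4ha1, P4ha2, Plod1, Plod2, Ero1l, Kdm3a, Ankrd37, Mxi1, Ak4 and Ndrg1. They were matched by symbol among the 25175 gene symbols of the deposited tables, and all 10 were found once in each library. The genes are grouped by what is known of them, but the list was chosen from genes whose values in these libraries had already been seen, in all 3 comparisons below. The values of the 10 genes are therefore a description and are not independent evidence of a response.

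The libraries were made from poly(A) RNA of HL-1 cells, an immortalised mouse atrial cardiomyocyte line. Cells were exposed for 24 h to 5 µM ivermectin, an antiparasitic drug also used as an inhibitor of importin α/β nuclear import, to 10 µM importazole, an inhibitor of importin-β, or to vehicle, 0.1% DMSO, with 3 libraries per group. All groups share the single cell line and Claycomb medium, and the labels name no low-oxygen exposure and no DMSO content for the compound groups. The compounds are not structural relatives and their doses differ, so they are set side by side at these doses only. The labels do not say whether the 3 libraries of a group came from separate cultures, so the errors below measure the spread between libraries, which may be technical.

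Cells sense oxygen through hydroxylases that mark the α subunits of hypoxia-inducible factor (HIF) for destruction. When oxygen is short the α subunits persist, enter the nucleus, pair with ARNT and bind hypoxia response elements, whose core reads ACGTG or GCGTG. Among the genes switched on in this way are enzymes that modify collagen in the endoplasmic reticulum (ER), enzymes that remove methyl groups from histones, and regulators of energy balance and of MYC. Several of the encoded proteins, including the collagen prolyl and lysyl hydroxylases and the histone demethylase KDM3A, themselves consume oxygen and 2-oxoglutarate.

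Levels are in FPKM (fragments per kilobase of transcript scaled to the mapped fragments of a library), so genes can be compared per length. The number of reads is unknown, and no counting interval is given. Low values did not resolve into whole multiples of a single read at the gene lengths tried, which may not be those the authors used. Summed FPKM ranged from 365259 to 416748 per library and 11055 to 11200 genes reached 1 FPKM. Vehicle 2 and ivermectin 3 list the abundant transcript Yam1 at 0, whereas it made up 5.86% to 10.4% of the FPKM sum elsewhere. The 12 HL-1 cardiomyocyte markers examined were all above the filter on low values, with summed levels of 6637 to 7106 FPKM with ivermectin, 7114 to 7667 FPKM with importazole and 7575 to 8613 FPKM with vehicle. Of these markers 3 (Myh6, Actc1 and Myl7) fell with ivermectin in limma, and with importazole 2 (Myh6 and Actc1) fell and 1 (Gja1) rose, each relative to vehicle. Of the 8 fibroblast markers 2 passed the filter, and the list summed to 37.1 to 39.1 FPKM with ivermectin, 34.8 to 37.2 FPKM with importazole and 23.8 to 27.0 FPKM with vehicle. Nearly all of that sum was Ddr2, a collagen receptor. Ddr2 rose relative to vehicle with ivermectin (log2 change 0.59, limma adjusted p = 7.02e-04) and with importazole (log2 change 0.49, limma adjusted p = 0.00379). The defining markers Col1a1, Col1a2, Col3a1, Pdgfra, Dcn, Lum and Postn averaged under 1 FPKM in every group. Of 6 endothelial markers 2 passed the filter, Kdr and, at a lower level, Eng. Pecam1 averaged 0.748 FPKM with ivermectin, 0.601 FPKM with importazole and 1.06 FPKM with vehicle, and Cdh5, Tek and Emcn averaged under 1 FPKM in every group. Of 6 macrophage markers 1, Cd68, passed, and Ptprc, Csf1r, Emr1, Cd14 and Lyz2 averaged under 1 FPKM in every group. The endothelial list summed to 8.98 to 9.94 FPKM with ivermectin, 9.85 to 11.5 FPKM with importazole and 10.3 to 11.2 FPKM with vehicle, and the macrophage list to 0.938 to 2.30, 1.22 to 1.80 and 0.822 to 1.71 FPKM in the same groups. The part of these markers in the results was not tested. In bulk RNA, fewer cells that express a gene and less RNA per cell cannot be told apart.

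The promoters of the genes are shown first, because these genes are grouped by their known induction by low oxygen. RefSeq promoter windows on GRCm38.p6, from 250 bases before to 50 bases after an annotated start, were matched for 8 of the 10 genes, with 15 windows in all. Plod2 and Ndrg1 had no entry. Each of the 8 genes held ACGTG or GCGTG, searched on both strands, in at least 1 window, and 6 of the 8 held ACGTG. Over all 27025 genes with an entry the shares were 46.7% and 21.8%, and over the 8396 genes with an entry that were also tested here they were 69.8% and 30.5%. Such shares per gene can rise with the number of windows, and the 8 genes had 15 windows, against 10787 windows for the 8396 genes. Of single windows, 12 of the 15 held a core, against 43.8% of all 32851 windows and 63.4% of windows of genes tested. Some windows of Ak4, of Mxi1 and of Kdm3a overlap each other, so the 15 are not independent. A match is a description of letters and not a shown binding site.

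In the 5 windows printed here, 5′ to 3′ on the strand of the gene, capitals mark each ACGTG or GCGTG on either strand. They were picked to show both prolyl hydroxylase genes, Ankrd37 and Ak4, which had the lowest levels of the 10, and Plod1, which did not pass in any comparison.
P4ha1, chr10:59323046-59323345, plus strand: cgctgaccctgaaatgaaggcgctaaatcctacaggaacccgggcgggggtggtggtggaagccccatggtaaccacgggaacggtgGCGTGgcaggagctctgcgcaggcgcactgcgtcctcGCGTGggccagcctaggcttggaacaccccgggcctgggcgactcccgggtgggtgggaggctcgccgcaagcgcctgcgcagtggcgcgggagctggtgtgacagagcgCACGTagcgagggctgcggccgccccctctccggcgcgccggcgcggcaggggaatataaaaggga
P4ha2, chr11:54100674-54100973, plus strand: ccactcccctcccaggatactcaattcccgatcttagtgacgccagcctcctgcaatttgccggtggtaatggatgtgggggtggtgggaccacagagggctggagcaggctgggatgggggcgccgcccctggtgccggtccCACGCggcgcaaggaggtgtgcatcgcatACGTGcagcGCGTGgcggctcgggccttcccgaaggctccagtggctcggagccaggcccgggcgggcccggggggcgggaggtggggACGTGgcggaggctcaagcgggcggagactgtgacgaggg
Ankrd37, chr8:45999801-46000100, minus strand: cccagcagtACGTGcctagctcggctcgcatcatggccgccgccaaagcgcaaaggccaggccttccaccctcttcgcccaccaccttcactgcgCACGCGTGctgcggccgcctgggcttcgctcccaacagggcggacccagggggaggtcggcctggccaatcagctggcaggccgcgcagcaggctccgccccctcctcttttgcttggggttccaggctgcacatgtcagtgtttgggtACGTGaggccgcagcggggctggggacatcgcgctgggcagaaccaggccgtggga
Ak4, window 4, chr4:101419453-101419752, plus strand: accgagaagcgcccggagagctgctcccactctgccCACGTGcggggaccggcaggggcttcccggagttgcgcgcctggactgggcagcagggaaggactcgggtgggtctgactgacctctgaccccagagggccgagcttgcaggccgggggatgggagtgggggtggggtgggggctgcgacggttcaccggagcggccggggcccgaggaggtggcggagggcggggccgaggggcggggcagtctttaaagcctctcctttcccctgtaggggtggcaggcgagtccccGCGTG
Plod1, chr4:147936727-147937026, minus strand: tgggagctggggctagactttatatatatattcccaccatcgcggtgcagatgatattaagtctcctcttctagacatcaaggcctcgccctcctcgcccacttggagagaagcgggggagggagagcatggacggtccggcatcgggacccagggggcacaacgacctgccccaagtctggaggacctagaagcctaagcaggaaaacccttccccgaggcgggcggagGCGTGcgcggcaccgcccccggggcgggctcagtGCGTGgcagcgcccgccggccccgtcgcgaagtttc

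P4ha1 and Ankrd37 each held an ACGTG close to the annotated start, at bases -16 to -12 on the opposite strand in P4ha1 and at bases -6 to -2 in Ankrd37. P4ha2 held 2, at bases -78 to -74 and 11 to 15. Plod1 held 2 copies of GCGTG, at bases -20 to -16 and 15 to 19, and no ACGTG. In Ankrd37 the pair at bases -155 to -148 is made of overlapping GCGTG matches on opposite strands. The single CACGTG among the 15 windows, which reads as ACGTG on both strands and is also the E-box bound by MYC and MAX proteins, was in Ak4 window 4, at bases -214 to -209.

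**Figure D1:**
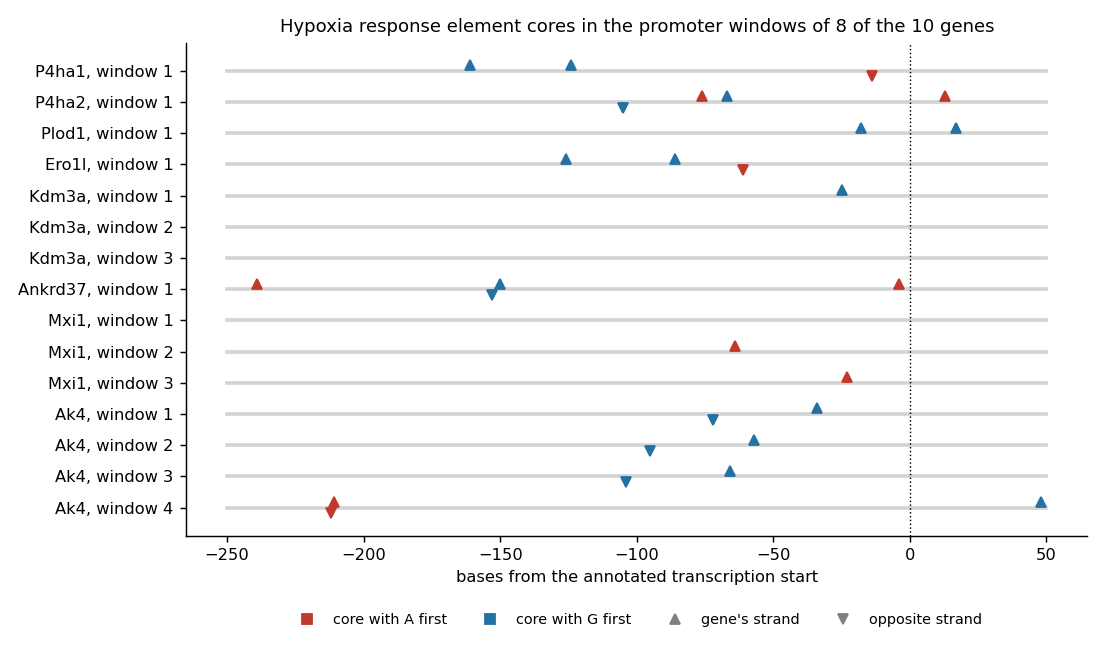
Positions of the cores ACGTG (red) and GCGTG (blue) in the 15 promoter windows of 8 genes, in bases from the annotated start (dotted line). Triangles that point up are on the strand of the gene and those that point down are on the other strand, and 12 of the 15 windows hold at least 1 core.

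The first comparison sets ivermectin against vehicle, to see which transcripts differ after 24 h of the importin α/β inhibitor. Genes were called changed at a Benjamini-Hochberg adjusted p under 0.05 in limma, over the 11337 genes that reached 1 FPKM in 3 or more libraries. All 10 genes entered the test, but Ankrd37 and Ak4 were under 1 FPKM in 2 of the 3 ivermectin libraries and entered through the other groups. Of the 10 genes 8 fell, 0 rose, and Plod1 and Ero1l did not pass. Without vehicle 1 or without ivermectin 1 the number that fell was 5. Over all genes tested 2.52% fell and 1.79% rose, and no inference is drawn from the contrast because the list was chosen with these values known. The median log2 change of the 10 genes was -0.48, beside 0.01 over all genes tested. In 9 of the 10 genes the 3 ivermectin libraries all lay below the 3 vehicle libraries, as in 12.2% of all genes tested. The calls of Plod2, Kdm3a, Mxi1 and Ankrd37 ended when no filter on low values was used, with no change in their log2 values. That setting raised the number of genes adjusted over and also refitted the moderation of the errors, and these were not separated.

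**Figure D2:**
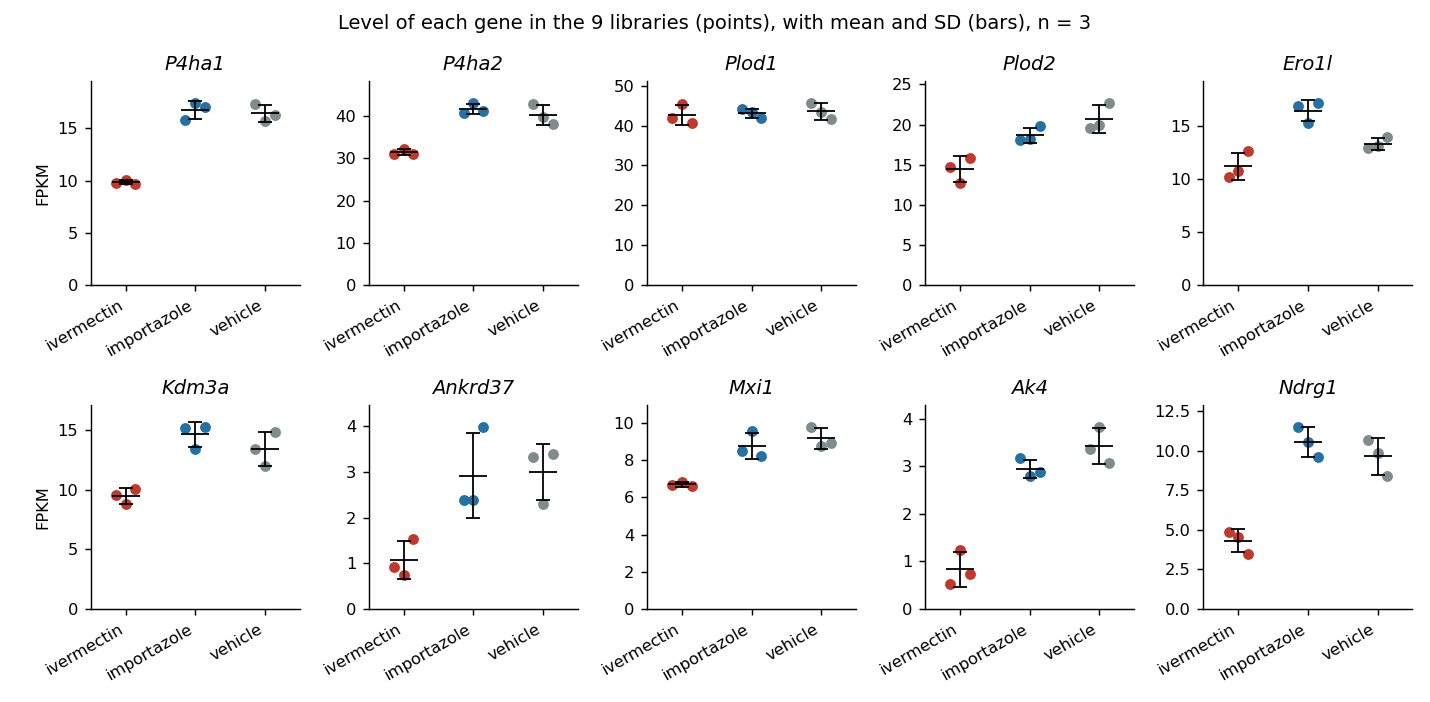
Level in FPKM (y axis, from 0) of each of the 10 genes in the ivermectin, importazole and vehicle libraries. Points are libraries, and bars give the mean and SD (n = 3). In 9 genes the ivermectin points lie below all others, whereas in Plod1 the 3 groups overlap at 40.7 to 45.7 FPKM. Over all genes tested, ivermectin lay below vehicle in 12.2% and below importazole in 16.1%. The share below both was not computed.

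The collagen prolyl 4-hydroxylases put hydroxyl groups on prolines of collagen chains, which stabilises the triple helix. Their catalytic α subunits are encoded by P4ha1 and P4ha2. P4ha1 (GRCm38 chromosome 10, 59323296 to 59373304, plus strand) had 9.81, 10.1 and 9.70 FPKM in ivermectin libraries, 15.8, 17.4 and 17.1 FPKM in importazole libraries and 17.3, 15.7 and 16.2 FPKM in vehicle libraries. The ivermectin libraries were tightly grouped and far below the other 6, which overlapped. Between ivermectin and vehicle its mean fell by 40.0%, a log2 change of -0.68 (SE 0.070). P4ha2 (chromosome 11, 54100095 to 54131665, plus strand) was the more abundant, at 31.0, 32.2 and 31.0 FPKM with ivermectin, 40.7, 43.1 and 41.1 FPKM with importazole and 42.7, 39.7 and 38.1 FPKM with vehicle. The order of the groups was the same as in P4ha1 but the gap was smaller. Its mean fell by 21.9% with ivermectin, a log2 change of -0.35 (SE 0.063). This call ended without the libraries that list Yam1 at 0, where the log2 change was -0.34.

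P4ha3 encodes a further α subunit. It was not on the list of 10 and was tested as a relative. Its level was 22.2 ± 1.29 FPKM with ivermectin and 19.3 ± 1.02 FPKM with vehicle (SD, n = 3 each), a log2 change of 0.19 (SE 0.074) that did not pass (limma adjusted p = 0.187). Of the summed FPKM of the 3 α subunit genes, P4ha1 made up 15.6% ± 0.233 with ivermectin, 22.2% ± 0.514 with importazole and 21.6% ± 0.5003 with vehicle (SD, n = 3 each). The share of P4ha3 was 34.9% ± 0.845 with ivermectin, 22.7% ± 0.509 with importazole and 25.5% ± 0.263 with vehicle. The sum itself was 63.4 ± 2.16 FPKM with ivermectin, 75.6 ± 3.06 FPKM with importazole and 76.0 ± 4.03 FPKM with vehicle. P4hb, the protein disulfide isomerase that serves as β subunit, averaged 199.8 FPKM with ivermectin, against 224.9 FPKM with vehicle, and did not pass (log2 change -0.17, limma adjusted p = 0.128). Its ivermectin libraries all lay below its vehicle libraries, and it passed with median-of-ratios scaling.

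Lysyl hydroxylases prepare collagen lysines for cross-links and for sugar attachment, and PLOD2 acts on the telopeptides that flank the helix. Plod2 (chromosome 9, 92542223 to 92608428, plus strand) had 14.8, 12.7 and 15.8 FPKM in ivermectin libraries, 18.1, 18.2 and 19.8 FPKM in importazole libraries and 19.5, 19.9 and 22.7 FPKM in vehicle libraries. The ivermectin libraries were the lowest 3, and the importazole and vehicle libraries overlapped. With ivermectin the mean of Plod2 fell by 30.3%, a log2 change of -0.50 (SE 0.092). Plod1 (chromosome 4, 147909753 to 147936767, minus strand) had 42.0, 45.5 and 40.7 FPKM with ivermectin, 44.1, 43.3 and 41.9 FPKM with importazole and 45.7, 43.3 and 41.6 FPKM with vehicle. The 3 groups overlapped throughout. The log2 change of Plod1 between ivermectin and vehicle was -0.03, with a 95% interval of -0.17 to 0.12. Plod3, the relative not on the list, averaged 42.6 FPKM with ivermectin and 42.8 FPKM with vehicle (log2 change -0.01, limma adjusted p = 0.972). Plod2 made up 14.5% ± 2.03 of the summed Plod FPKM with ivermectin, 17.98% ± 0.917 with importazole and 19.3% ± 1.43 with vehicle.

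Ero1l, also named Ero1a, encodes the ER oxidase that passes electrons from protein disulfide isomerase to oxygen. It lies on chromosome 14 (45283087 to 45318771, minus strand) and was at 10.2, 10.7 and 12.6 FPKM with ivermectin, 16.8, 15.3 and 17.1 FPKM with importazole and 12.9, 13.1 and 13.9 FPKM with vehicle. The groups did not overlap, with ivermectin lowest, vehicle between and importazole highest. Neither step from vehicle passed: the log2 change was -0.24 (SE 0.088) with ivermectin and 0.29 (SE 0.088) with importazole. Its relative Ero1lb averaged 2.23 FPKM with ivermectin and 2.19 FPKM with vehicle (log2 change 0.02, limma adjusted p = 0.946).

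Kdm3a encodes a demethylase of lysine 9 of histone H3 that needs iron, oxygen and 2-oxoglutarate. The gene (chromosome 6, 71588972 to 71632990, minus strand) had 9.56, 8.81 and 10.1 FPKM in ivermectin libraries, 15.2, 13.5 and 15.3 FPKM in importazole libraries and 13.4, 11.97 and 14.8 FPKM in vehicle libraries. All ivermectin libraries lay below the other 6. The mean fell by 29.3% with ivermectin, a log2 change of -0.46 (SE 0.092). The call ended without vehicle 1, vehicle 3, ivermectin 1 or ivermectin 2, with log2 changes of -0.46 to -0.39, and when only the 6 libraries compared were fitted. The other KDM3 family genes, Kdm3b and Jmjd1c, had log2 changes of 0.06 and 0.07 between ivermectin and vehicle (limma adjusted p = 0.778 and 0.787), and their levels of 4.74 and 3.43 FPKM with ivermectin overlapped those with vehicle. Kdm3a made up 53.7% ± 1.37 of the summed FPKM of the KDM3 genes with ivermectin, 63.0% ± 2.53 with importazole and 63.5% ± 1.601 with vehicle.

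Mxi1 encodes a repressor that binds MAX in place of MYC. It lies on chromosome 19 (53310518 to 53375810, plus strand) and had 6.65, 6.82 and 6.60 FPKM with ivermectin, 8.47, 9.58 and 8.22 FPKM with importazole and 9.80, 8.77 and 8.94 FPKM with vehicle. The ivermectin libraries were closely grouped and the lowest. With ivermectin the mean fell by 27.0%, a log2 change of -0.40 (SE 0.081). The call ended without vehicle 1, ivermectin 1 or ivermectin 3, with log2 changes of -0.40 to -0.36. Of the relatives and partners of Mxi1 none passed in this comparison. Max, the shared partner, had a level of 31.3 FPKM with ivermectin, against 31.4 FPKM with vehicle (log2 change -0.01, limma adjusted p = 0.9754), and Mxd1, Mxd3 and Mxd4, which encode repressors of the same family, had log2 changes of -0.21, -0.06 and -0.03. Myc had a level of 3.68 ± 0.699 FPKM with ivermectin, against 2.27 ± 0.0513 FPKM with vehicle (SD, n = 3 each), or 0.50 higher on the log2 scale (limma adjusted p = 0.0814), and passed when ivermectin 3 was left out. Of the 10 tested genes of the MAX network list 0 passed in any of the 3 comparisons by limma, with 4 at an unadjusted p under 0.05 between ivermectin and vehicle.

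The remaining 3 genes showed the largest proportional decreases of the 10. Ndrg1 (chromosome 15, 66929318 to 66969640, minus strand), a stress-responsive gene of the N-myc downstream regulated family, had 4.88, 4.55 and 3.49 FPKM in ivermectin libraries, 11.5, 10.5 and 9.61 FPKM in importazole libraries and 10.7, 9.85 and 8.42 FPKM in vehicle libraries. No ivermectin library came near the others, and its mean fell by 55.4%, a log2 change of -1.01 (SE 0.12). Ndrg1 made up 3.88% ± 0.741 of the summed Ndrg FPKM with ivermectin, 9.41% ± 1.02 with importazole and 7.33% ± 0.723 with vehicle. The sum, in which Ndrg2 was the largest term, was 111.4 ± 3.28 FPKM with ivermectin, 112.4 ± 2.78 FPKM with importazole and 131.5 ± 3.12 FPKM with vehicle, so the shares rest on sums that differ between groups. Its relatives Ndrg2, Ndrg3 and Ndrg4, each more abundant, had log2 changes of -0.17, -0.10 and -0.28 with ivermectin and did not pass (limma adjusted p = 0.112, 0.386 and 0.120).

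Ak4 encodes an adenylate kinase of the mitochondrial matrix. Located on chromosome 4 (101419277 to 101466995, plus strand), it had 0.530, 1.25 and 0.727 FPKM with ivermectin, 3.16, 2.80 and 2.87 FPKM with importazole and 3.36, 3.83 and 3.07 FPKM with vehicle. The highest ivermectin library was still below every other library. The mean of Ak4 fell by 75.6% with ivermectin, and the log2 change of -1.28 (SE 0.14) became -1.98 with a pseudocount of 0.1 in place of 1, since log2(FPKM + 1) understates changes at such levels. A processed pseudogene, Ak3l2-ps, matched the Ak4 transcript at 99.6% identity over 672 bases, so reads can be shared. It was listed at 0.364 ± 0.111 FPKM with ivermectin and 0.803 ± 0.113 FPKM with vehicle (SD, n = 3 each). Among the other adenylate kinases, the cytosolic Ak1 and the mitochondrial Ak3 were both more abundant than Ak4. Ak1 had 65.7, 71.7 and 61.5 FPKM with ivermectin and 78.5, 82.6 and 78.9 FPKM with vehicle, and its groups did not overlap. Ak3 averaged 37.0 FPKM with ivermectin, against 33.5 FPKM with vehicle. Neither passed (limma adjusted p = 0.0560 and 0.318), and Ak1, with a log2 change of -0.27, passed at a filter of 5 FPKM, with median-of-ratios scaling and without ivermectin 2.

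Ankrd37 encodes a small ankyrin repeat protein. It lies on chromosome 8 (45996902 to 46005707, minus strand) and was at 0.917, 0.738 and 1.53 FPKM with ivermectin, 2.38, 2.38 and 3.997 FPKM with importazole and 3.34, 2.30 and 3.39 FPKM with vehicle. The groups were wide, and the highest ivermectin library was below the lowest vehicle library. Its mean fell by 64.7% with ivermectin, a log2 change of -0.97 (SE 0.19), or -1.46 with a pseudocount of 0.1. The call ended without vehicle 1, vehicle 3, ivermectin 1 or ivermectin 2, with log2 changes of -0.92 to -0.85. Exons of Ankrd37 overlap those of Lrp2bp and Ufsp2 on the other strand, and no source used here says whether counting used strand, so its level is uncertain. Ufsp2 averaged 14.2 FPKM with ivermectin and 15.6 FPKM with vehicle (limma adjusted p = 0.363), and Lrp2bp 0.739 and 0.678 FPKM. Plod2, Mxi1 and Ndrg1 also overlap annotated transcripts on the opposite strand, Gm38391, Gm10197, and Gm17035 with Gm2895.

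Of the 16 nearest relatives and partners 0 passed limma's test between ivermectin and vehicle, where 7 were at an unadjusted p under 0.05, 5 of them lower. Their median log2 change was -0.02. The wider lists gave the same comparison over more genes. Of 12 tested partners of collagen hydroxylation and 18 genes of ER disulfide formation 0 passed, with 3 in each list at an unadjusted p under 0.05. Of 10 tested genes for collagen chains, the substrates of the P4H and PLOD enzymes, 0 passed, with 3 lower at an unadjusted p under 0.05. Of 19 genes for JmjC demethylases and related oxygenases 2 fell and 17 did not pass. The first, Jmjd6, which encodes a 2-oxoglutarate oxygenase of the same fold, had a level of 21.2 ± 0.637 FPKM with ivermectin, against 29.8 ± 0.931 FPKM with vehicle (SD, n = 3 each), or -0.47 on the log2 scale (limma adjusted p = 0.00340). The second, Kdm4b, a demethylase gene itself known as a HIF target, had a level of 11.5 ± 0.962 FPKM with ivermectin, against 16.01 ± 0.717 FPKM with vehicle, or -0.44 on the log2 scale (limma adjusted p = 0.0197). The call of Kdm4b ended without vehicle 2, vehicle 3 or ivermectin 2. The median log2 change of the JmjC list was 0.02, beside 0.01 over all genes tested.

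Among other genes known to be induced by low oxygen, 24 of 35 listed were tested, 10 fell with ivermectin, 0 rose and 14 did not pass. Their median log2 change was -0.33. This list includes genes whose behaviour in these libraries was known when it was written, and it is not independent support. Adm, which encodes the vasodilator adrenomedullin, had a level of 28.4 ± 1.88 FPKM with ivermectin, against 60.2 ± 3.15 FPKM with vehicle. Ier3, an immediate early response gene, had a level of 14.01 ± 1.23 FPKM with ivermectin, against 26.8 ± 0.741 FPKM with vehicle. Both passed (limma adjusted p = 1.75e-05 and 5.39e-05), as did the mitochondrial protein genes Higd1a and Fam162a, with log2 changes of -0.76 and -0.83 (limma adjusted p = 1.58e-04 and 1.66e-04).

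The second comparison sets importazole, the importin-β inhibitor, against vehicle. None of the 10 genes passed by limma, and 1, Ero1l, was at an unadjusted p under 0.05. Over all genes tested, 0.565% fell and 1.69% rose, which is 64 and 192 genes, and with quantile normalization 117 fell and 159 rose. The median log2 change of the 10 genes was 0.01, beside 0.04 over all genes tested, and 5 of the 10 log2 changes were negative. With quantile normalization that median was -0.04. In 9 of the 10 genes the importazole and vehicle libraries overlapped, but the share of all genes that overlapped was not computed, so nothing is read from this count. In Ero1l all 3 importazole libraries lay above the vehicle libraries, as in 16.5% of all genes tested, with a mean higher by 23.6%.

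The 95% intervals show what size of change these 3 libraries per group could have left unseen. In 9 of the 10 genes the interval included 0, Ero1l being the exception at 0.09 to 0.48. For P4ha1 the interval of the log2 change was -0.13 to 0.18, for P4ha2 -0.09 to 0.19 and for Mxi1 -0.24 to 0.12. For Plod1 it was -0.16 to 0.13, for Kdm3a -0.08 to 0.32 and for Plod2 -0.34 to 0.06. The intervals were widest for Ndrg1, Ak4 and Ankrd37, at -0.15 to 0.39, -0.47 to 0.14 and -0.47 to 0.38. A failure to pass does not show that importazole and vehicle were alike. Of the 16 relatives 1 passed: Ndrg4 fell to 25.2 ± 3.48 FPKM in importazole libraries, against 36.5 ± 0.988 FPKM in vehicle libraries (log2 change -0.53, limma adjusted p = 0.0148). The call of Ndrg4 ended without any one of vehicle 1, 2 or 3. The other hypoxia-inducible list had 0 of 24 genes past limma's threshold, with 6 at an unadjusted p under 0.05, 5 of them higher. The lower gene was Ier3, at 21.4 ± 0.502 FPKM with importazole, against 26.8 ± 0.741 FPKM with vehicle (log2 change -0.31, limma adjusted p = 0.0549). Ier3 passed in 7 of 20 alternatives, among them quantile normalization and median-of-ratios scaling. Likewise 0 passed by limma among the collagen hydroxylation partners, the collagen chains, the ER disulfide genes, the JmjC genes, the MAX network and the adenylate kinases, with 0, 1, 2, 1, 1 and 1 at an unadjusted p under 0.05.

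Ivermectin at 5 µM and importazole at 10 µM were then set against each other. Of the 10 genes 8 were lower with ivermectin, 0 higher, and Plod1 and Plod2 did not pass, beside 2.71% of all genes tested that were lower and 0.714% that were higher. Those are 307 and 81 genes, and with quantile normalization 274 were lower and 191 higher. The median log2 difference of the 10 genes was -0.55, beside -0.03 over all genes tested. Both comparisons with ivermectin share its 3 libraries, so the 8 genes here and the 8 in the comparison with vehicle are not separate evidence. All 3 ivermectin libraries lay below all 3 importazole libraries in 9 of the 10 genes, as in 16.1% of all genes tested. The log2 difference was -0.71 for P4ha1, -0.40 for P4ha2, -0.52 for Ero1l, -0.58 for Kdm3a and -0.34 for Mxi1. It was -1.13 for Ndrg1, -1.12 for Ak4 and -0.92 for Ankrd37. Plod2, with a log2 difference of -0.36 (SE 0.092), did not pass although its groups did not overlap. Ero1l is the gene that passed here and in neither comparison with vehicle.

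Of these calls that of Mxi1 depended most on the libraries included. It ended when any one of 8 of the 9 libraries was left out, vehicle 1 being the exception, with log2 differences of -0.38 to -0.28. It also ended when only the 6 libraries compared were fitted and when levels were rescaled without Yam1, with a log2 difference of -0.31. The call of Ankrd37 ended without ivermectin 1, ivermectin 2, importazole 2 or importazole 3, with log2 differences of -1.01 to -0.73. Of the 16 relatives 1 passed, P4ha3, and in the opposite direction to P4ha1 and P4ha2. It had a level of 22.2 ± 1.29 FPKM with ivermectin, against 17.2 ± 1.08 FPKM with importazole (SD, n = 3 each), a log2 difference of 0.35 (limma adjusted p = 0.0294). This call ended without ivermectin 1, ivermectin 2, importazole 1 or importazole 3, and when only the 6 libraries compared were fitted. Among the collagen hydroxylation partners Tmem38b, an ER potassium channel gene, was also higher with ivermectin (log2 difference 0.39, limma adjusted p = 0.0465), a call that ended without vehicle 1, vehicle 3, ivermectin 1, ivermectin 2 or any importazole library. In the collagen chain list Col4a1, a basement membrane collagen, was lower with ivermectin, at 15.2 ± 1.24 FPKM, against 20.2 ± 0.872 FPKM with importazole (limma adjusted p = 0.0294). Its call ended without ivermectin 1, ivermectin 3 or any importazole library. Of the ER disulfide genes, the MAX network and the adenylate kinases 0 passed by limma between ivermectin and importazole, with 4, 2 and 0 at an unadjusted p under 0.05. Jmjd6 was lower with ivermectin than with importazole (log2 difference -0.59, limma adjusted p = 8.26e-04). In the other hypoxia-inducible list 12 of 24 genes were lower with ivermectin, among them Adm, Fam162a, Bhlhe40 and Higd1a with log2 differences of -1.02, -1.06, -1.12 and -0.76. Some of the 12 calls were less stable than these, and the least stable ended in 17 of 20 alternatives.

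**Figure D3:**
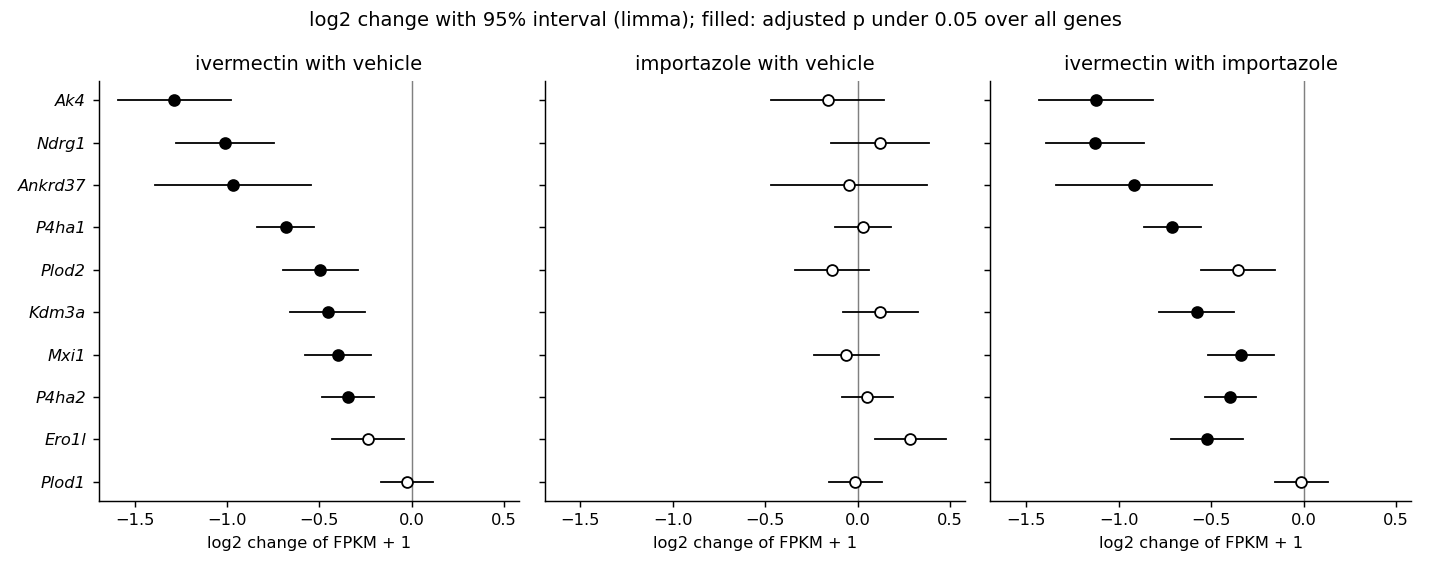
The log2 change of FPKM + 1 (x axis) of each of the 10 genes in the 3 comparisons, with the 95% interval from limma. Filled points passed an adjusted p under 0.05 over all genes: 8 of 10 for ivermectin with vehicle, 0 of 10 for importazole with vehicle and 8 of 10 for ivermectin with importazole.

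How closely the 10 genes moved together over the 9 libraries was described by Pearson's r between each gene and the mean of the other 9, each centred and scaled over the libraries. The 9 libraries fall into a low cluster of 3 and a high cluster of 6, so r reflects mainly the gap between them. It was 0.990 for P4ha1, 0.973 for P4ha2, 0.951 for Ndrg1, 0.944 for Ak4, 0.926 for Mxi1 and 0.903 for Kdm3a. It was 0.867 for Ankrd37, 0.795 for Plod2, 0.741 for Ero1l and 0.135 for Plod1. Outside the list, the 6 genes with a mean of at least 5 FPKM that followed the mean of the 10 most closely over the 9 libraries were Creb3l2 (r = 0.994), Bnip3 (r = 0.989), Pgm2 (r = 0.989), Adm (r = 0.987), Egln3 (r = 0.985) and Egln1 (r = 0.983). Creb3l2, which encodes a membrane-bound transcription factor of the ER, was at 15.6, 16.3 and 15.9 FPKM with ivermectin, 21.7, 20.8 and 21.6 FPKM with importazole and 22.7, 20.3 and 20.6 FPKM with vehicle. Pgm2, a phosphoglucomutase gene, was at 36.3, 38.7 and 41.8 FPKM with ivermectin, 61.3, 60.6 and 61.0 FPKM with importazole and 66.4, 60.4 and 60.0 FPKM with vehicle. In both, all ivermectin libraries lay below the other 6. Egln1 and Egln3, which encode prolyl hydroxylases that sense oxygen, and the mitophagy receptor gene Bnip3 belong to the same class of HIF-induced genes. The 10 genes were chosen with these values known, so likeness to their mean is a description and not independent evidence. A cause was not tested.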

How the data were processed

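Gene expression was measured by poly(A) RNA-seq on the Ion Proton in 9 libraries of HL-1 cells, 3 per group, grouped by the treatment named in the labels. The deposited values are FPKM per gene and library, made by the authors before deposit. Tools listed in the submitters' processing notes are the aligners STAR, Bowtie and Bowtie2 and the quantifier Cufflinks, beside the builds mm10 and GRCm38, with no version or role. No source used here names the annotation or says whether strand was used. Each table has 25230 lines; the 48 symbols listed more than once were summed, which left 25175. Low values did not resolve into whole multiples of a single read at GENCODE M21 lengths, but the lengths the authors used are not known. Depth is therefore unknown and no count model was used.

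Values were tested as log2(FPKM + 1), which understates changes of genes near 1 FPKM, in limma 3.58.1 (R 4.3.3) with group as the single term, all 9 libraries, and robust, trended moderation. Genes needed at least 1 FPKM in at least 3 libraries, and p-values were adjusted by Benjamini-Hochberg over 11337 genes. The fit was run on simulated data with changes larger than most of those of the 10 genes, so recovery of changes of their size was not tested. The 10 genes and all related lists were chosen with earlier results of these data known, so no p-value is given for the 10. Named besides them are each of their 16 nearest relatives or partners, up to 4 genes past the threshold with the smallest p per list and comparison, and the 6 genes of the closest profile; a further relative is not reported here. Related lists held 128 genes, of which 98 were tested. Gene coordinates are from GENCODE M21 (GRCm38). Promoter windows are from RefSeq (GRCm38.p6), with Ero1l matched as Ero1a, and BLAST 2.17.0 was used to look for near-identical transcripts. Alternatives covered the pseudocount, the filter, scaling, the libraries fitted, a replicate block, the threshold and leaving out libraries.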

Additional observations from a re-analysis of the deposited data

How the results depend on the processing

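Of the 10 genes 9 kept a negative log2 change between ivermectin and either other group in every alternative run that gave a value, and Plod1, which passed in none, took both signs. Without a filter on low values the number of all genes changed was 211 against 489 (ivermectin with vehicle), 133 against 256 (importazole with vehicle) and 177 against 388 (ivermectin with importazole). The 10 genes then gave 4 calls against 8 for ivermectin with vehicle, and the related genes 7 against 12, 0 against 1 and 10 against 16. At an adjusted p under 0.01 the changed genes were 173, 108 and 150, the 10 genes gave 3 calls for ivermectin with vehicle, and the related genes 6, 0 and 9. With only the 6 libraries compared there were 274 changed genes in the first comparison and 3 related genes in the second. The number of related genes for importazole with vehicle was 2 at a filter of 5 FPKM and 3 with quantile normalization, with median-of-ratios scaling or when rescaled without Yam1. Without both libraries that list Yam1 at 0 the changed genes were 195, 161 and 233, and the related genes 7 in the first comparison and 0 in the second. Leaving out 1 library at a time gave 243 to 399, 128 to 320 and 177 to 396 changed genes, with 5 to 8, 0 and 6 to 8 calls among the 10 genes and 8 to 13, 0 to 4 and 10 to 14 among the related genes, in the same order. The counts fell by more than 1.5 times without vehicle 1 (263), vehicle 2 (243), ivermectin 1 (306) or ivermectin 3 (315) for ivermectin with vehicle. They did so without vehicle 2 (134), vehicle 3 (142) or any importazole library (128, 134 and 154) for importazole with vehicle. For ivermectin with importazole this was so without ivermectin 1 (216), ivermectin 2 (244) or any importazole library (213, 177 and 227). Correlations between same-numbered libraries of different groups ran from -0.210 to 0.145, and between differently numbered ones from -0.219 to 0.307. With 3 libraries per group these values cannot decide whether same-numbered libraries were handled together. With a replicate block the changed genes were 354, 175 and 257, and the 10 genes gave 8, 0 and 8 calls. Between ivermectin and importazole these 8 were not the 8 without the block, since Plod2 then passed and Mxi1 did not, and P4ha3, Tmem38b and Col4a1 also no longer passed. Plod2 passed there without ivermectin 3 as well. How many reads lie behind the levels near 1 FPKM of Ankrd37 and Ak4 is unknown.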
